A study of Homo sapiens with 6 samples.

Results

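The 41 genes described here encode the machinery that brings proteins into human mitochondria, folds and degrades them there, and fuses, divides or removes the organelle. They were taken by gene name from a list of nuclear genes for these functions, and each matched 1 of the 57819 rows of the deposited table. Expression was compared in a model of oncogene-induced senescence, between IMR90 fibroblasts depleted of sin-lncRNA, a long non-coding RNA, and fibroblasts given a control siRNA. IMR90 cells are an established human lung fibroblast line. All libraries, controls included, came from cells labelled ER:Ras, in which an oncogenic RAS protein fused to an oestrogen receptor domain is switched on by 4-hydroxytamoxifen (4OHT), and all were treated with 200 nM 4OHT for 3 days. The control group (3 libraries) was labelled siSCR, a scrambled siRNA, and the knockdown group (3 libraries) received siRNA against sin-lncRNA. Cells without 4OHT were not analysed here, so every difference below is a difference between 4OHT-treated cells. Whether the cells had become senescent was not tested. The labels call the libraries triplicates without saying whether they were separate cultures, so the p-values measure the spread between these libraries, which may be technical.

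Most mitochondrial proteins are made in the cytosol and must be threaded through the outer membrane by the TOM complex. Inner membrane and matrix proteins then pass through the TIM23 or TIM22 complexes, escorted across the intermembrane space by small TIM chaperones and pulled into the matrix by an HSP70 motor. Matrix chaperones fold them, AAA+ proteases remove those that fail, and prohibitin rings organise the inner membrane around these proteases. The network is shaped by GTPases that fuse it (MFN1, MFN2, OPA1) or divide it (DNM1L), and PINK1 with Parkin marks damaged mitochondria for removal. In fibroblasts, an elongated and enlarged mitochondrial network is a known trait of the senescent state.

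Reads counted in genes ranged from 30271192 to 50913672 in the control libraries and from 22117324 to 27882280 in the knockdown libraries. Each knockdown library was thus shallower than each control library, and depth and group cannot be told apart; levels are given in RPM, reads scaled to 1000000 of the effective library size. A count of 3 reads, the limit that a count of 0 allows, was worth 0.0596 to 0.134 RPM and covers counting error only. The targeted lncRNA (RP4-530I15.6, ENSG00000234693.1, hg19 chr20:49262008-49278812, plus strand) was at 3.70, 4.73 and 4.09 RPM in the control libraries and 0.493, 0.640 and 0.534 RPM in the knockdown libraries. It fell to 13.3% of control (log2 fold change -2.86, SE 0.18, adjusted p = 7.9e-07, limma with Benjamini-Hochberg adjustment), and the groups did not overlap. All 8 fibroblast markers were above 1 RPM, summing to 15176 to 16342 RPM in the controls and 10707 to 11129 RPM in the knockdown. Of the 5 leukocyte markers 0 reached 1 RPM (sums of 0.200 to 0.298 and 0.269 to 0.641 RPM), of the 3 endothelial markers found 1 did (1.70 to 1.90 and 2.29 to 2.71 RPM), and of the 5 epithelial markers 3 did (28.0 to 31.3 and 28.6 to 31.4 RPM). The fibroblast markers did not move together: the mean of COL1A1 was 6617 RPM in the controls and 3599 RPM after the knockdown, and COL1A2, VIM, PDGFRB and S100A4 also had lower means, while COL3A1 (1555 and 2015 RPM), THY1 (261.0 and 298.1 RPM) and FAP (117.4 and 147.3 RPM) had higher means. The fibroblast and endothelial sums differed between the groups, and their part in the results below was not tested. In these bulk samples, fewer cells of a type and less RNA per cell cannot be told apart. Mitochondrially encoded transcripts made up 4.21% to 4.66% of the reads in the control libraries and 4.60% to 5.09% in the knockdown libraries.

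Of the 41 genes, 39 averaged 10 or more normalized reads over the 6 libraries and were tested. At an adjusted p under 0.05, 19 were lower after the knockdown, 1 was higher and 19 were not called. Over all 19048 genes tested the share called was 41% (23.5% lower, 17.5% higher), against 51.3% of the 39 tested here (48.7% lower, 2.56% higher). Among protein-coding genes 48.6% were called (26.4% lower, 22.2% higher). Among protein-coding genes of 10 to 310 RPM, a range set after seeing the data to match most of these genes, 54.0% were called (29.8% lower, 24.2% higher). The count called thus stood near that background, and the split was toward lower calls. The median log2 fold change was -0.13 over the 39 genes and -0.04 over all genes tested, with 69.2% and 55.1% of values below 0. The 3 knockdown libraries did not overlap the 3 control libraries for 25 of the 39 genes, 21 lower and 4 higher. The same holds for 51.1% of all genes tested (28.5% lower, 22.6% higher). Changes were mostly small: 1 gene fell by more than 1 on the log2 scale, TOMM34, and 3 more by over 0.5, TIMM17B, PHB and TIMM50.

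**Figure D1:**
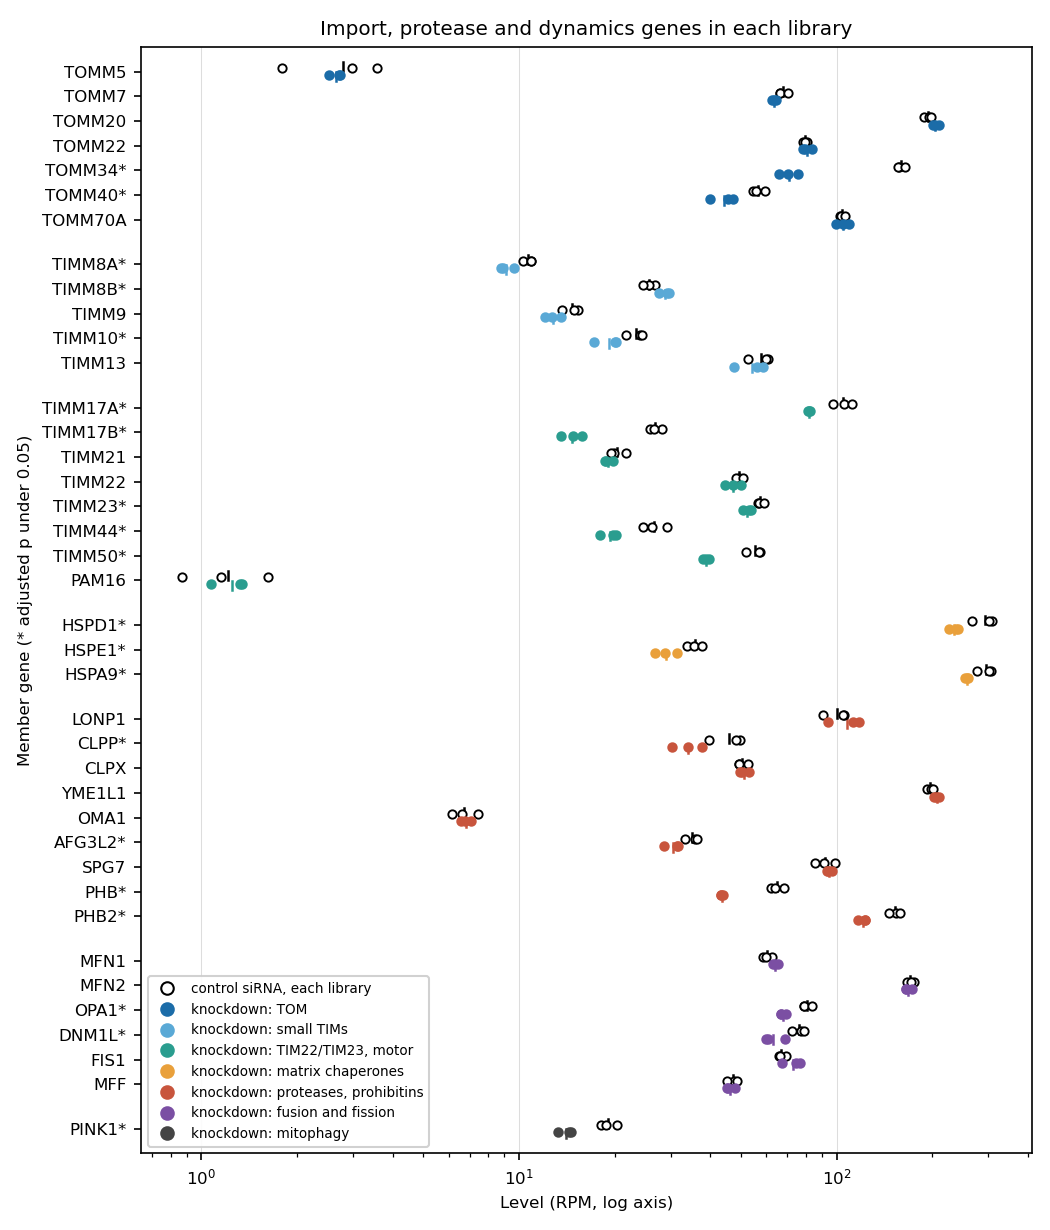
Level of each of the 39 tested genes in every library, in RPM on a log axis, with open circles for the 3 control libraries, filled circles for the 3 knockdown libraries, vertical ticks for group means and an asterisk for an adjusted p under 0.05. TOMM34 and TIMM17B show the widest gaps between the groups, while the circles of TOMM22, TOMM70A, CLPX and MFF interleave.

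**Figure D2:**
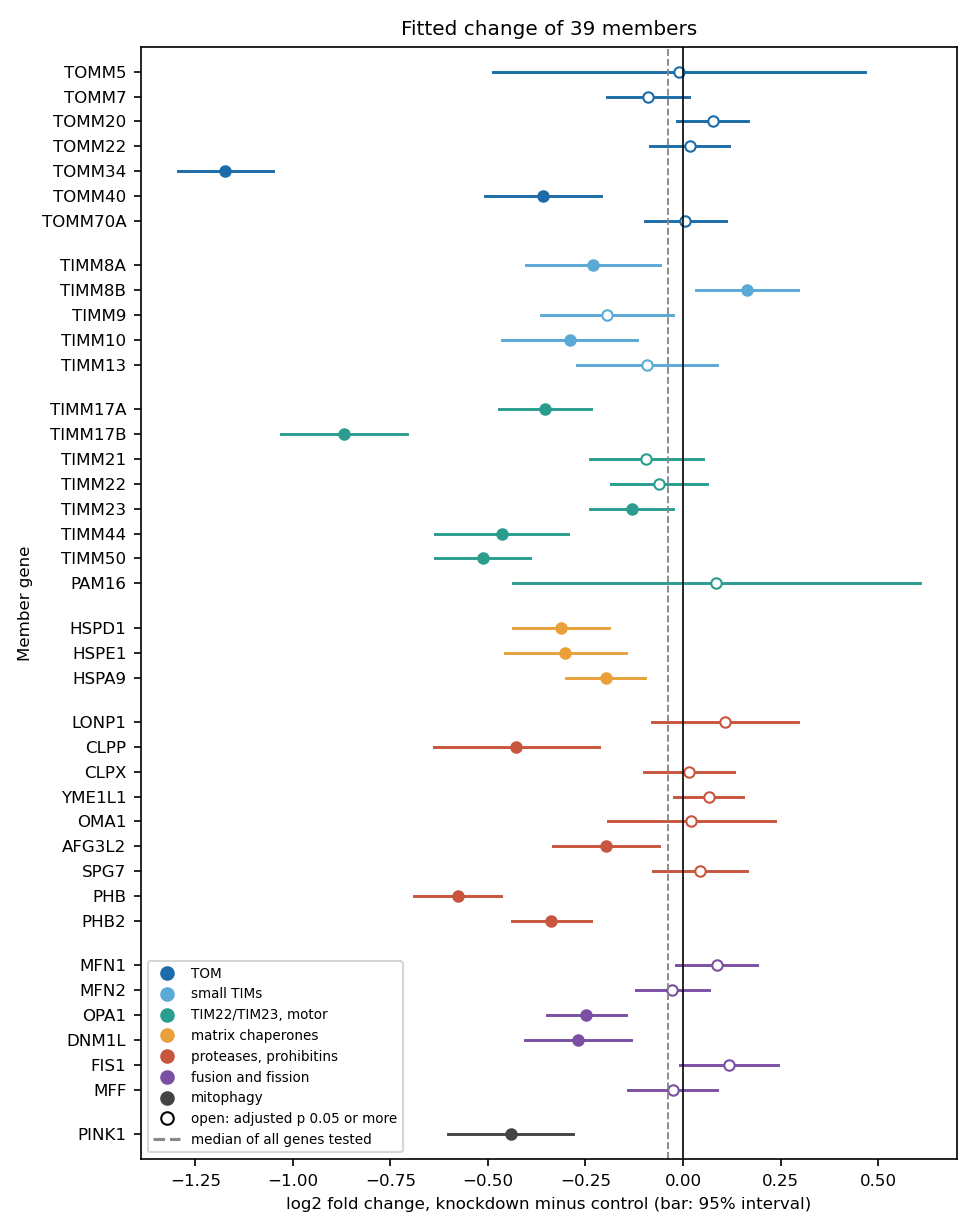
Fitted log2 fold change, knockdown minus control, of the 39 tested genes with the 95% interval from limma (bars); filled points passed an adjusted p of 0.05, and the dashed line is the median of all genes tested, -0.04. The 20 filled points lie left of 0 except TIMM8B, and the intervals of TOMM5 and PAM16 are the widest.

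Upstream stretches of 4 of the genes that fell are shown because the stretches differ in the promoter motifs they hold. They come from RefSeq on GRCh38.p14, a different build from the table's hg19, and run 5′ to 3′ on the gene's strand. For TOMM34 (chr20:44960487-44960647, minus strand), PHB (chr17:49414906-49415132, minus strand) and TIMM17A (chr1:201955253-201955490, plus strand) the bases are the longest stretch, within 250 bases upstream of the start, outside GENCODE 29 exons. For HSPD1 (chr2:197500061-197500090, minus strand) 30 bases upstream of its other RefSeq start are given. Unlike the other sequences, all 30 bases lie in GENCODE 29 exons. They end 220 bases before that other start and lie downstream of the first listed start. Capitals mark matches, on either strand, to 3 kinds of motif: the SP1 box GGGCGG, the NF-Y box CCAAT, and the heat shock element in either phase, written TTCNNGAA or GAANNTTC.
TOMM34: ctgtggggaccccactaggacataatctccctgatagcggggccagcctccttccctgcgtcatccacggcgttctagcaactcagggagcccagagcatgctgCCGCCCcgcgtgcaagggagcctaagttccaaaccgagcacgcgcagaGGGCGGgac
PHB: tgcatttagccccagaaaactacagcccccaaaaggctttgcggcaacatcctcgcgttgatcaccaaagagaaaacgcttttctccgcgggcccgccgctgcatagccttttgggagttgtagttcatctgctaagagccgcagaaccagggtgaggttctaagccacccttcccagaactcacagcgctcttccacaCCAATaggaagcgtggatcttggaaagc
TIMM17A: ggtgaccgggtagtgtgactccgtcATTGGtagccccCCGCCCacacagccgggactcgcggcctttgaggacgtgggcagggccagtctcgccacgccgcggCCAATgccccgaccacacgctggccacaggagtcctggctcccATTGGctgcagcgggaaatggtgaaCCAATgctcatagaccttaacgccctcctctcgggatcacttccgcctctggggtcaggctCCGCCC
HSPD1: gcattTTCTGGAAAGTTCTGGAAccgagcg
In the stretches shown, TOMM34 holds 2 GGGCGG matches, PHB holds 1 CCAAT match, and TIMM17A holds 4 CCAAT and 2 GGGCGG matches. The full 250 bases, exons included, hold 4 GGGCGG matches for TOMM34. For PHB they hold 1 GGGCGG match beside the 1 CCAAT match, and for TIMM17A the counts are the same. In HSPD1, whose product is induced by heat shock, 2 TTCNNGAA matches and 1 GAANNTTC match overlap each other.

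RefSeq windows were found for 35 of the 41 genes, 17 of those lower and 17 of those not called among them. In the 250 bases upstream of the first listed start, GGGCGG occurred in 26 of the 35 (74.3%) and in 42.3% of all 27305 windows. It was present in 15 of the 17 genes that were lower and in 11 of the 17 not called. CCGGAAG, the ETS box, occurred in 10 of the 35 (28.6%; 8.81% of all windows), in 3 of the 17 lower genes and 6 of the 17 not called. CCAAT was in 12 of the 35 (34.3%; 33.0% of all), and CACGTG, the E-box, in 5 (14.3%; 6.49% of all). The palindromic NRF1 box was found in 1 of the 35 (2.86%; 1.13% of all), while the YY1 box AAGATGGC was found in 0 (1.37% of all) and the CREB box TGACGTCA also in 0 (1.77% of all). The heat shock motif TTCNNGAA occurred in 3 (8.57%; 6.72% of all) and its counterpart GAANNTTC in 0 (5.85% of all). The HSPD1 matches shown above lie upstream of its other start and are not in these counts. Exon bases were absent from only 1 of the 35 windows. The 35 windows were GC-rich, at 49.2% to 76.0%, which short GC-rich motifs share, and a match is a description of letters.

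At the outer membrane TOMM34 and TOMM40 fell, and the other 5 tested genes were not called. The share called was 28.6%, beside 41% of all genes tested (23.5% lower). TOMM34 encodes a cytosolic co-chaperone that hands precursors to the import machinery together with HSP70 and HSP90. It was at 157.1, 156.1 and 163.9 RPM in the controls and 75.6, 70.5 and 65.7 RPM in the knockdown libraries. It fell to 44.4% of control (159.0 ± 4.3 to 70.6 ± 5.0 RPM, SD, n = 3; log2 fold change -1.17, SE 0.06, adjusted p = 1.4e-07, limma), on 1652 to 8251 reads a library. No library of the knockdown came near the controls. Per kilobase of merged GENCODE 29 exons (GRCh38), the control level of TOMM34 was 77.1 RPM per kb, beside 68.8 for HSPD1, whose pseudogene reads are not counted in it, and 61.3 for PHB2. TOMM34 lies on the minus strand of hg19 chr20:43570771-43589127, on the same chromosome as the targeted lncRNA and 5.67 Mb from it.

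TOMM40, the beta-barrel pore of the complex, was at 54.6, 55.7 and 59.7 RPM in the controls and 39.9, 45.6 and 47.1 RPM after the knockdown. It fell to 78.1% of control (log2 fold change -0.36, SE 0.07, adjusted p = 0.0015, limma), without overlap. The precursor receptors did not pass the test: TOMM20, which reads presequences, had a log2 difference of 0.08 (95% interval -0.01 to 0.17), TOMM70A, the docking site for chaperone-bound carriers, 0.01 (-0.10 to 0.11), and TOMM22, the central receptor, 0.02 (-0.08 to 0.12). These intervals leave room for shifts of at most 0.17 on the log2 scale. TOMM7, a small subunit that tunes the complex, had -0.09 (-0.19 to 0.01). TOMM5, another small subunit, had 54 to 150 reads a library and an interval from -0.49 to 0.47, too wide to place it. TOMM6 was listed at 0 reads in all 6 libraries. All 2237 bases of its locus lie inside the locus of PRICKLE4 on the same strand in the table's coordinates, and PRICKLE4 was at 5.17 ± 0.55 RPM in the controls and 4.97 ± 0.46 RPM in the knockdown libraries. Whether the authors' counting withheld reads from such overlaps was not tested.

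The small TIM chaperones of the intermembrane space did not move together. TIMM10, a subunit of the TIMM9-TIMM10 chaperone that carries hydrophobic precursors, was at 21.7, 24.1 and 24.4 RPM in the controls and 17.3, 20.1 and 20.1 RPM after the knockdown (log2 fold change -0.29, SE 0.08, adjusted p = 0.012, limma). Its call was lost without control replicate 3 (adjusted p = 0.060, limma). TIMM9 had 15.4, 13.7 and 14.9 RPM against 13.6, 12.1 and 12.7 RPM and missed the threshold at a log2 fold change of -0.20 (adjusted p = 0.063, limma). It passed without control replicate 2 or without knockdown replicate 1 (adjusted p = 0.040 and 0.044, limma). TIMM8A, whose loss causes deafness-dystonia syndrome, fell to 85.1% of control (adjusted p = 0.034, limma), and its paralogue TIMM8B was the 1 gene that rose, to 112% of control. TIMM8B was at 26.9, 25.7 and 24.6 RPM in the controls and at 27.7, 29.2 and 29.6 RPM in the knockdown libraries (log2 fold change 0.16, SE 0.06, adjusted p = 0.047, limma). Both calls sat close to the threshold. That of TIMM8A was lost without control replicate 2 or 3 or knockdown replicate 1 or 2 (adjusted p from 0.079 to 0.118, limma), and that of TIMM8B without control replicate 2 or 3 or knockdown replicate 2 or 3 (0.088 to 0.188). TIMM13, the partner of TIMM8A, overlapped between the groups (log2 fold change -0.09, 95% interval -0.27 to 0.09).

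Of the inner membrane translocases 5 of 8 genes were lower and 0 higher, with a median log2 fold change of -0.24. The share called was 62.5%, beside 60% of the 5 small TIMs and 100% of the 3 matrix chaperones. It was 28.6% of the 7 tested outer membrane genes and 44.4% of the 9 proteases and prohibitins. Of the 6 fusion and fission genes 33.3% were called, and the 1 mitophagy gene tested was called. Over all genes tested the share was 41% (23.5% lower), and 54.0% among protein-coding genes of 10 to 310 RPM (29.8% lower). TIMM17B, 1 of the 2 paralogues that form the TIM23 channel core, was at 25.8, 28.1 and 26.6 RPM in the controls and 13.5, 15.8 and 14.7 RPM after the knockdown. It fell to 54.8% of control (log2 fold change -0.87, SE 0.07, adjusted p = 6.6e-06, limma). TIMM17A, the paralogue that is known to be degraded by YME1L1 under stress, fell less, from 97.4, 105.5 and 111.8 RPM to 81.5, 82.3 and 82.0 RPM (log2 fold change -0.35, SE 0.05, adjusted p = 0.00039, limma). Neither gene overlapped between the groups. TIMM50, the receptor that keeps the TIM23 channel closed until a presequence arrives, was at 57.3, 51.8 and 57.0 RPM in the controls and 37.9, 39.6 and 38.8 RPM in the knockdown libraries (log2 fold change -0.51, SE 0.06, adjusted p = 3.7e-05, limma). TIMM44, which tethers the HSP70 motor to the channel, fell from 26.2, 24.6 and 29.3 RPM to 18.0, 20.1 and 19.8 RPM (log2 fold change -0.47, SE 0.08, adjusted p = 0.00072, limma).

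The channel gene TIMM23 itself was near the threshold, at 91.3% of control (log2 fold change -0.13, SE 0.05, adjusted p = 0.049, limma). Its 3 knockdown libraries (53.7, 50.7 and 52.8 RPM) lay below its controls (56.4, 56.8 and 59.0 RPM), and the call was lost when any library other than knockdown replicate 1 was left out (adjusted p from 0.054 to 0.188, limma). The TIMM23 call was also lost with scaling to library totals, trimmed-mean scaling and quantile normalization (adjusted p = 0.083, 0.086 and 0.198, limma). Its near-identical copy TIMM23B was not called (16.2 ± 1.1 to 15.1 ± 0.7 RPM, adjusted p = 0.304, limma), and reads of the pair may have been split between them. TIMM21, which links TIM23 to the respiratory chain, and TIMM22, the channel for carrier proteins, had log2 differences of -0.09 (adjusted p = 0.280, limma) and -0.06 (adjusted p = 0.416, limma). PAM16, a J-like regulator of the motor, had only 26 to 58 reads a library and an interval from -0.44 to 0.61.

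All 3 matrix chaperones fell. HSPA9 (mortalin, the HSP70 that drives the import motor) was at 277.6, 307.1 and 301.6 RPM in the controls and 257.9, 253.5 and 260.1 RPM in the knockdown libraries (log2 fold change -0.20, SE 0.05, adjusted p = 0.0054, limma). HSPD1 (HSP60, the folding chamber) was at 267.2, 307.4 and 302.2 RPM and then 240.2, 226.1 and 238.0 RPM (log2 fold change -0.31, SE 0.06, adjusted p = 0.0011, limma). HSPE1 (HSP10, its lid) was at 33.8, 35.5 and 37.8 RPM and then 31.5, 26.8 and 28.7 RPM (log2 fold change -0.30, SE 0.07, adjusted p = 0.0056, limma). Control and knockdown libraries were apart for each of the 3. HSPD1 and HSPE1 are transcribed in opposite directions, and all 3464 bases of the HSPE1 locus lie inside the HSPD1 locus in the table's coordinates. No strand setting of the counting is given in the sources used here, so reads of HSPD1 and HSPE1 there cannot be told apart.

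Among the proteases and prohibitins 4 of 9 genes fell and 0 rose. The share called was 44.4%, all lower, beside 41% of all genes tested (23.5% lower) and 54.0% of protein-coding genes of 10 to 310 RPM. CLPP, the proteolytic chamber of the ClpXP protease, was at 49.8, 39.6 and 48.1 RPM in the controls and 30.4, 37.7 and 34.0 RPM after the knockdown (log2 fold change -0.43, SE 0.10, adjusted p = 0.0045, limma). Corrected for GC content and length, the CLPP change was -0.22 (adjusted p = 0.0015, limma). Its unfoldase CLPX had a log2 difference of 0.02 (adjusted p = 0.835, limma). AFG3L2, the catalytic subunit of the m-AAA protease, fell to 87.2% of control (log2 fold change -0.20, SE 0.06, adjusted p = 0.024, limma), while its partner SPG7 (paraplegin) had a log2 difference of 0.04 (adjusted p = 0.565, limma). The AFG3L2 call was lost without control replicate 2 or 3 or knockdown replicate 2 (adjusted p from 0.059 to 0.107, limma). YME1L1 and OMA1, the inner membrane peptidases that cleave OPA1, had log2 differences of 0.07 and 0.02 (adjusted p = 0.215 and 0.883, limma). LONP1, the main soluble protease of the matrix, was at 105.7, 90.5 and 104.5 RPM in the controls and 94.1, 117.7 and 112.8 RPM in the knockdown libraries. It overlapped between the groups and was not called (log2 fold change 0.11, adjusted p = 0.338, limma). LONP1 was called higher without knockdown replicate 1 (0.20, adjusted p = 0.043, limma) and with that correction (0.24, adjusted p = 0.00078, limma).

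The prohibitins, the scaffold that holds the m-AAA protease, both fell. PHB was at 62.3, 68.5 and 64.1 RPM in the controls and 43.2, 43.9 and 43.4 RPM after the knockdown (66.9% of control; log2 fold change -0.58, SE 0.05, adjusted p = 9.5e-06, limma). PHB2 was at 154.4, 146.5 and 158.4 RPM and then 122.9, 117.1 and 123.3 RPM (79.1% of control; log2 fold change -0.34, SE 0.05, adjusted p = 0.00019, limma). The groups were far apart for both genes relative to their spread.

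Of the genes for fusion and fission, 1 of each kind fell and 4 were not called. The share called was 33.3%, beside 41% of all genes tested (23.5% lower). OPA1, which fuses the inner membrane and holds cristae, was at 79.1, 78.9 and 83.4 RPM in the controls and 69.2, 66.9 and 67.0 RPM after the knockdown (log2 fold change -0.25, SE 0.05, adjusted p = 0.0014, limma). With the GC and length correction its change was -0.39 (adjusted p = 8.7e-06, limma). DNM1L (DRP1), the GTPase that constricts the organelle, was at 72.2, 77.2 and 78.7 RPM and then 68.8, 60.0 and 60.7 RPM (log2 fold change -0.27, SE 0.06, adjusted p = 0.0051, limma). The outer membrane mitofusins MFN1 and MFN2 had log2 differences of 0.09 (95% interval -0.02 to 0.19) and -0.03 (adjusted p = 0.639, limma), and the DNM1L adaptor MFF -0.03 (adjusted p = 0.713, limma). The fission protein FIS1 was at 69.1, 65.8 and 66.1 RPM in the controls and 67.2, 74.4 and 76.8 RPM in the knockdown libraries, overlapping through knockdown replicate 1. It was not called at a log2 difference of 0.12 (adjusted p = 0.122, limma), but passed as higher without that library (0.17, adjusted p = 0.023, limma) and with the GC and length correction (0.25, adjusted p = 0.00029, limma).

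PINK1, the kinase that accumulates on damaged mitochondria, was at 20.4, 18.1 and 18.8 RPM in the controls and 13.2, 14.6 and 14.4 RPM in the knockdown libraries. It fell to 73.5% of control (log2 fold change -0.44, SE 0.07, adjusted p = 0.00067, limma). The antisense gene PINK1-AS shares 8855 bases with it on the opposite strand and rose from 7.50 ± 0.37 to 10.8 ± 0.4 RPM (log2 fold change 0.53, adjusted p = 0.00042, limma). Without a known strand setting, reads of PINK1 and PINK1-AS cannot be told apart where they overlap. PARK2, which encodes Parkin, the ubiquitin ligase recruited by PINK1, had 3 to 10 reads a library (0.107 to 0.342 RPM) and was not tested.

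**Figure D3:**
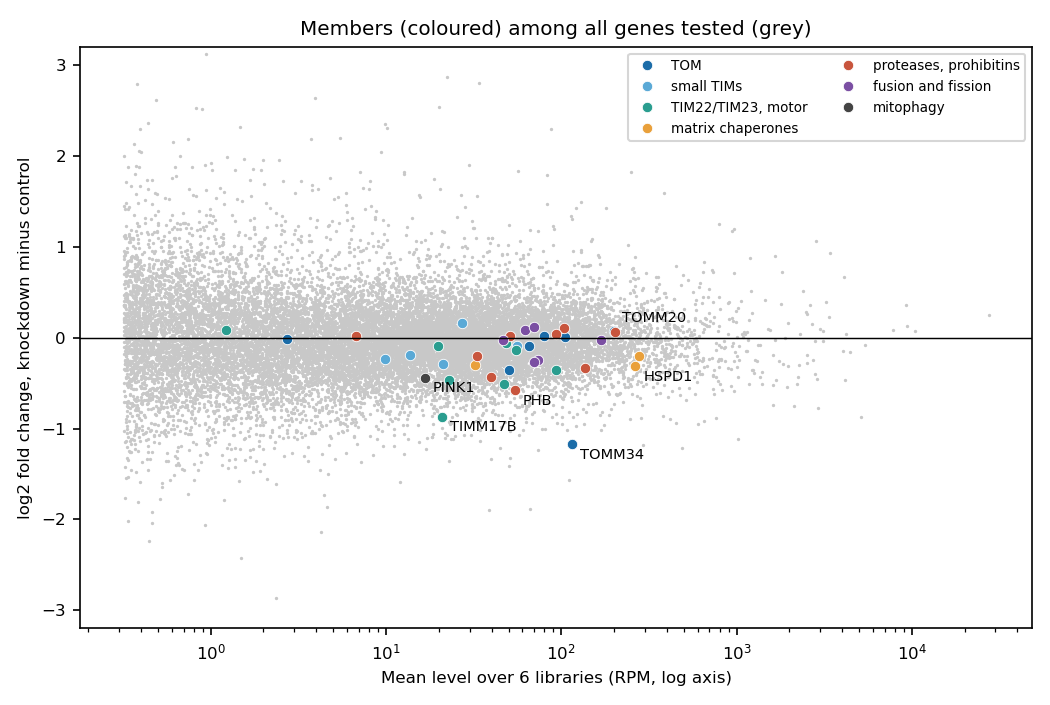
Log2 fold change, knockdown minus control, against the mean level over the 6 libraries in RPM (log axis), for all 19048 genes tested (grey) and the 39 genes described (coloured by function). Most coloured points lie at or below 0 inside the grey cloud, and TOMM34 (-1.17) and TIMM17B (-0.87) sit at its lower edge.

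Genes that work in pairs were also compared by their ratio within each library, which library scaling does not touch. In 8 pairs, an exact two-sided permutation test over 3 against 3 libraries cannot go below 0.1, so none could pass 0.05, and the 5 pairs at 0.1 had a Benjamini-Hochberg adjusted exact p of 0.16. The ratio of TIMM17A to TIMM17B was 3.78, 3.75 and 4.20 in the controls and 6.02, 5.19 and 5.56 in the knockdown libraries (exact permutation p = 0.1). The balance of the channel paralogues thus differed without overlap, toward TIMM17A. CLPP to CLPX went from 0.908 ± 0.106 to 0.669 ± 0.089, TIMM8A to TIMM8B from 0.416 ± 0.030 to 0.316 ± 0.014, and PHB to PHB2 from 0.425 ± 0.036 to 0.359 ± 0.013 (SD, n = 3; exact permutation p = 0.1 each). MFN1 to MFN2 went the other way, from 0.353 ± 0.003 to 0.383 ± 0.013 (exact permutation p = 0.1). These 4 pairs also did not overlap between the groups. The ratios carry no correction for GC content and length. Fitted singly with that correction, MFN1 was at -0.028 and MFN2 at -0.044 on the log2 scale, CLPP at -0.22 and CLPX at -0.082. TIMM17A and TIMM17B differ in GC content (40.9% and 56.5%). Fitted singly under all alternatives, that correction among them, TIMM17A ranged from -0.41 to -0.31 and TIMM17B from -0.92 to -0.77. HSPD1 to HSPE1 was 8.19 ± 0.41 and 8.12 ± 0.43 (exact permutation p = 0.9), DNM1L to OPA1 was 0.945 ± 0.033 and 0.932 ± 0.054 (exact permutation p = 0.7), and AFG3L2 to SPG7 was 0.384 ± 0.041 and 0.324 ± 0.025 (exact permutation p = 0.2), with overlap in all 3.

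**Figure D4:**
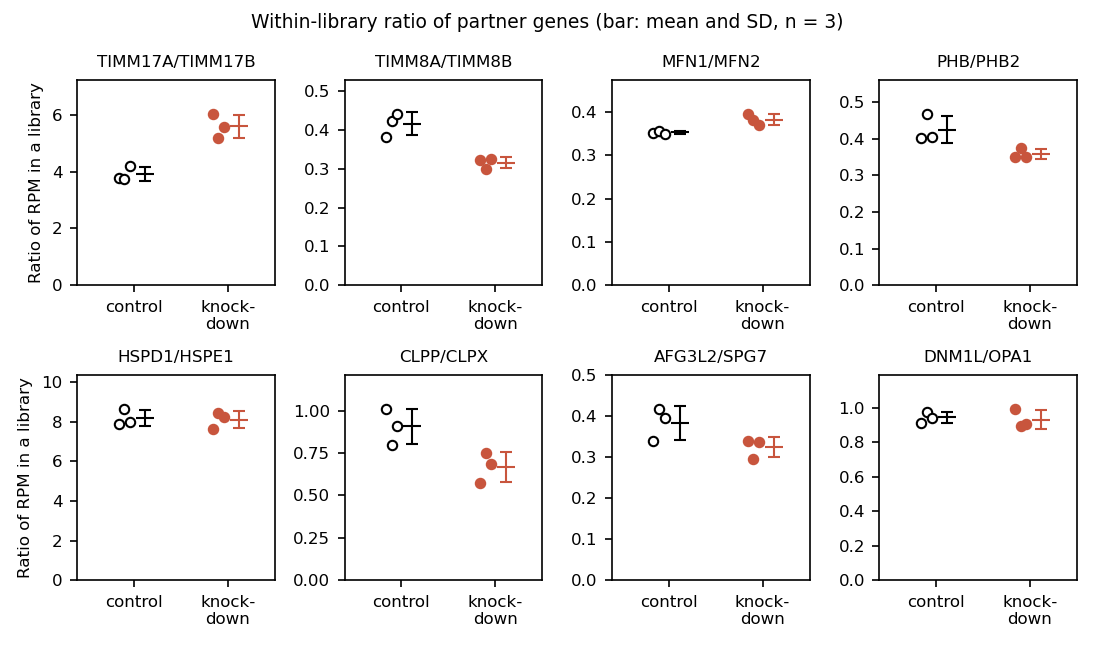
Ratio of RPM between partner genes within each library, on axes from 0, for the 3 control (open) and 3 knockdown libraries (filled), with the mean and SD beside them. The groups separate for 5 pairs, most widely for TIMM17A to TIMM17B, and overlap for HSPD1 to HSPE1, AFG3L2 to SPG7 and DNM1L to OPA1. Ratios are not corrected for GC content or length.

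A further 76 genes of the same pathways, listed by function, were set beside the 41, and 75 of them were tested. Of these, 32 were lower and 11 higher (57.3% called; 41% of all genes tested and 54.0% of protein-coding genes of 10 to 310 RPM), with a median log2 fold change of -0.12. Without control replicate 3 the count called was 27. Among genes for sorting and insertion 7 of 19 were lower and 5 higher, and among processing and quality-control peptidases and chaperones 9 of 18 were lower and 0 higher. For cristae organisation 1 of 7 was lower, IMMT (the core MICOS subunit mitofilin), at 118.2 ± 2.3 RPM in the controls and 86.7 ± 2.7 RPM after the knockdown. Among genes for dynamics and transport 9 of 18 were lower and 3 higher, and among mitophagy receptors and regulators 6 of 13 were lower and 3 higher. Over the whole list 42.7% were lower and 14.7% higher, against 23.5% and 17.5% of all genes tested.

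The 5 widest falls of that list included 3 genes of mitochondrial dynamics. MIGA1 (mitoguardin, an outer membrane fusion factor, FAM73A in the table) fell from 23.9 ± 2.2 to 10.2 ± 0.8 RPM (log2 fold change -1.23, adjusted p = 2.0e-06, limma). PLD6 (MitoPLD, a lipase that promotes fusion) fell from 2.45 ± 0.14 to 1.04 ± 0.15 RPM (log2 fold change -1.23, adjusted p = 0.00019, limma), and MTFR2, a fission regulator, fell from 1.37 ± 0.33 to 0.656 ± 0.108 RPM on 12 to 75 reads (log2 fold change -1.02, adjusted p = 0.0061, limma). ATP23, an intermembrane space peptidase, fell from 2.12 ± 0.35 to 1.25 ± 0.46 RPM on 16 to 127 reads (log2 fold change -0.81, adjusted p = 0.033, limma). Its call was lost without control replicate 1 or 3 or knockdown replicate 1 (adjusted p from 0.055 to 0.131, limma), and without that knockdown library its fold change was -0.46 on the log2 scale. TOLLIP, an autophagy adaptor, fell from 44.7 ± 2.1 to 26.6 ± 1.2 RPM (log2 fold change -0.75, adjusted p = 4.3e-06, limma).

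The widest rises were smaller. DNAJC19 (PAM18-like, the J-protein that activates the import motor) rose from 6.12 ± 0.32 to 7.80 ± 0.25 RPM (log2 fold change 0.35, adjusted p = 0.0080, limma), and GRPEL2, a nucleotide exchange factor of HSPA9, from 20.7 ± 0.3 to 25.5 ± 0.3 RPM (log2 fold change 0.30, adjusted p = 0.0013, limma). MTX3, a metaxin, rose by 0.28 on the log2 scale, and 0.12 (adjusted p = 0.139, limma) once the GC and length trend was removed. FUNDC2, a relative of the mitophagy receptor FUNDC1, rose by 0.30 (adjusted p = 0.0031, limma). With the GC and length correction FUNDC2 was at 0.19 (adjusted p = 0.027, limma) and GRPEL2 at 0.20 (adjusted p = 0.00845, limma). GDAP1, an outer membrane protein tied to fission, rose by 0.35 (adjusted p = 0.039, limma), and its call was lost without control replicate 1 or 3 or knockdown replicate 1 or 3 (0.076 to 0.129). Chosen after their values were seen, the other genes of that list that rose were MTX2 (0.24) and DNAJC15 (0.24) for import, RHOT1 (0.18) and TRAK1 (0.14) for transport along microtubules, and BNIP3L (0.17) and TBK1 (0.23) for mitophagy.

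Several of the genes have pseudogenes whose sequence resembles the parent, so short reads can be split between them. For 10 genes the table lists 45 pseudogenes by name, and 36 of these had reads. The reads on the pseudogenes of PHB came to 47.2% of those on PHB itself, and they were at 30.6 ± 2.5 RPM in the controls and 20.1 ± 0.7 RPM in the knockdown libraries, a log2 ratio of -0.61 beside -0.58 for PHB. For HSPD1 the share was 38.7% and the log2 ratios -0.37 and -0.32, and for HSPA9 27.9%, with -0.21 and -0.20. Pseudogene and parent moved alike in these 3 genes. For TIMM8B the share was 30.1% (log2 ratios 0.20 and 0.16), for TIMM8A 22.4% (-0.34 and -0.23) and for AFG3L2 20.3% (-0.14 and -0.20). With pseudogene reads added to the parent, TIMM8B was no longer called (adjusted p = 0.052, limma) and TIMM9 was called lower (adjusted p = 0.042, limma). Levels of PHB, HSPD1, HSPA9, TIMM8A, TIMM8B and AFG3L2 are therefore uncertain by the reads assigned to these copies.

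**Figure D5:**
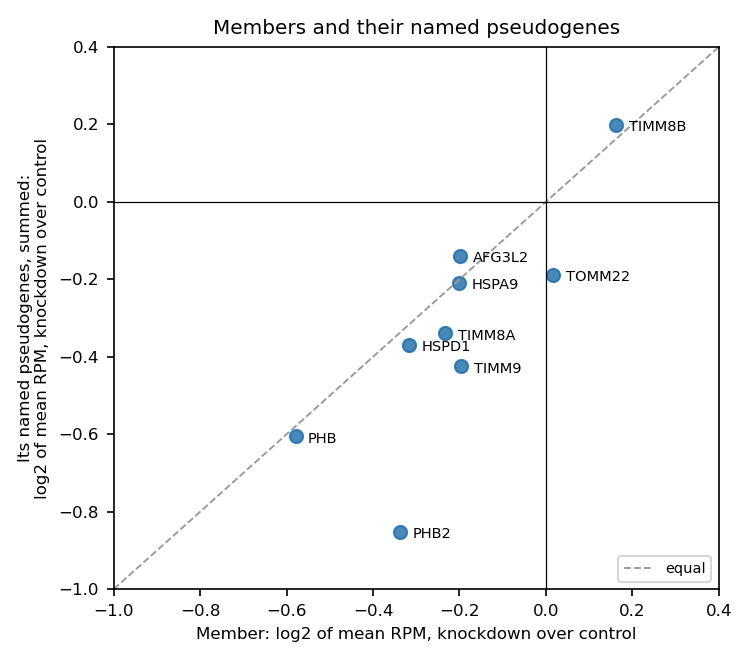
Log2 ratio of mean RPM, knockdown over control, for 9 genes (horizontal axis) and for the sum of their named pseudogenes (vertical axis), with the dashed line marking equal values. PHB, HSPD1, HSPA9 and TIMM8B lie close to the line. TOMM22, TIMM9 and PHB2, whose pseudogenes hold 8.40%, 7.58% and 0.723% as many reads as the parent, lie below it. TIMM8A also lies below the line (pseudogenes -0.34, gene -0.23), and AFG3L2 lies above it (-0.14 and -0.20).

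In the table's coordinates 19 of the 41 genes overlap another gene of at least 1 RPM, and 7 have a divergently transcribed neighbour whose start lies within 1000 bases. TIMM17B shares 232 bases with its divergent neighbour PQBP1, which fell less, from 40.3 ± 0.9 to 33.5 ± 1.8 RPM (log2 fold change -0.27, adjusted p = 0.0029, limma). KIAA0586, next to TIMM9, also fell (log2 fold change -0.27, adjusted p = 0.013, limma). LNP1, next to TOMM70A, rose from 1.67 ± 0.13 to 3.05 ± 0.39 RPM (log2 fold change 0.86, adjusted p = 0.00087, limma), and ANKRD11, next to SPG7, rose from 251.3 ± 10.3 to 322.1 ± 9.3 RPM (log2 fold change 0.36, adjusted p = 0.00010, limma). Neither TOMM70A nor SPG7 was called. The neighbours of TIMM8B, TIMM21 and YME1L1 (SDHD, FBXO15 and MASTL) were not called. TIMM8B also shares 351 bases with C11orf57 on the opposite strand, which rose from 36.0 to 46.1 RPM (log2 fold change 0.36, adjusted p = 0.0010, limma). DNM1L shares 18063 bases with YARS2 on the opposite strand, which fell from 27.2 to 23.6 RPM (log2 fold change -0.20, adjusted p = 0.020, limma). TOMM34 shares 16906 bases on the opposite strand with PABPC1L, at 13.9 RPM in the controls and 14.2 RPM after the knockdown. AFG3L2 likewise shares 15377 bases with TUBB6 (312.9 and 280.4 RPM), and PHB2 shares 5499, its whole locus, with EMG1 (24.9 and 22.5 RPM). PABPC1L, TUBB6 and EMG1 were not called. Without a known strand setting, reads in these shared stretches cannot be told apart.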

How the data were processed

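Polyadenylated RNA from 3 control and 3 knockdown samples was sequenced. Per the submitters' processing notes, Bowtie2, featureCounts and hg19 were used; versions and strand setting are not given in the sources used here. The deposited values are log2 CPM with an offset of 0.5 reads; whole reads were recovered for 100% of values (within 1e-06), at 22117324 to 50913672 reads a library. Genes with a mean of at least 10 normalized reads were fitted on the deposited log2 values with limma 3.58.1 in R 4.3.3 (group only, trended empirical Bayes, Benjamini-Hochberg adjustment over 19048 genes, threshold 0.05). In simulated data for this comparison with 200 changed genes, the fit recovered 64% of changes of 0.5 and 91% of changes of 1 on the log2 scale, and 1.27% of calls were unchanged genes. The simulation gave all 19048 genes the same dispersion and changed few of them, while 41% were called in the data. Its rates therefore need not carry over to these data. Alternatives varied offset, filter, scaling, variance model, depth, GC and length, replicate block, left-out library, pseudogene reads and threshold. Pair ratios were tested by exact permutation. The genes, companion list and tests were chosen with earlier results of these data known. Named were all 41 genes, the targeted lncRNA and the 5 widest rises and falls called in the companion list; IMMT, the other 6 companion rises and neighbouring genes were named after their values were seen. Replicates differed beyond counting noise (chi-square per degree of freedom 2.69 to 10.1).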

Additional observations from a re-analysis of the deposited data

How the results depend on the processing

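Of the 20 genes called among the 41, 15 kept their call and direction under all alternatives that gave a value. TIMM23 lost its call under 14 of 19 alternatives, TIMM8B under 10 of 21 and TIMM8A under 9 of 21. AFG3L2 lost it under 7 of 21 and TIMM10 under 2 of 20. The stricter threshold of 0.01 is among these alternatives. None of the 20 changed sign. The targeted lncRNA ranged from -2.98 to -2.50. Between 15 and 22 members were called across the alternatives. The count higher was 0 without the filter, without the variance trend, at equal depth, with the replicate block, with pseudogene reads added and at an adjusted p of 0.01, 2 after quantile normalization, 3 after removal of the GC and length trend, and 0 to 3 with a library left out. The members' median log2 fold change was -0.16 at a mean of 50 reads, -0.085 after quantile normalization, -0.18 after the GC and length correction (without TIMM23, which had no length), and -0.17 to -0.11 with a library left out. Over all genes 5195 passed 0.01; without the filter 5542 were higher and 4678 lower, against 3325 and 4480. Of the companion list 25 passed 0.01, and 27 to 42 were called with a library left out, the fewest without control replicate 3.

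Uncalled genes near 0 changed sign. After the GC and length correction TOMM70A was at -0.081, TIMM13 0.080, CLPX -0.082, YME1L1 -0.026, OMA1 -0.00466 and MFN1 -0.028. MFF was at 0.024 and TOMM5 at 0.026 after quantile normalization, CLPX at -0.028 at equal depth, and TOMM5 at 0.016 with an offset of 5 reads, 0.00815 scaled to totals and 0.00676 with trimmed-mean scaling. With a library left out the ranges were -0.30 to 0.20 (TOMM5), -0.011 to 0.034 (TOMM22), -0.026 to 0.039 (TOMM70A), -0.13 to 0.31 (PAM16), -0.013 to 0.048 (CLPX), -0.043 to 0.095 (OMA1) and -0.00711 to 0.095 (SPG7), and for the log2 ratios -0.041 to 0.031 (HSPD1 to HSPE1) and -0.068 to 0.00660 (DNM1L to OPA1). The cause was not tested. TOMM7 passed as lower at equal depth (adjusted p = 0.049, limma) and TOMM20 as higher after quantile normalization (adjusted p = 0.050, limma).

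Correlations of same-number libraries were -0.149, -0.183 and 0.065, and those of different numbers ran from -0.076 to 0.204. With 3 libraries a group, these values cannot show whether same-number libraries were handled as pairs. With replicate numbers as a block, 6454 genes and 16 members were called. Low read counts limit TOMM5, PAM16, PARK2, PLD6, MTFR2 and ATP23, among others.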
